A study of Homo sapiens with 18 samples.

Results

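The S100 genes other than S100A8, S100A9 and S100A12 were described in U937 and THP-1, a pair of established human monocytic cell lines. The 10 genes were chosen by symbol (S100A1, S100A4, S100A6, S100A10, S100A11, S100A13, S100A16, S100B, S100P and S100Z), and all 10 were found by Ensembl identifier among the 18670 genes of the counts table. Of these, 8 had enough reads to be tested in every comparison. S100A16 and S100Z were almost without reads.

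S100 proteins are small calcium-binding proteins with a pair of EF-hand loops. Most form dimers, and calcium opens a surface through which the dimer docks on annexins, cytoskeletal proteins, enzymes or, outside the cell, receptors such as RAGE (gene AGER). In monocytes and neutrophils the family is best known for the calprotectin pair, S100A8 and S100A9, while the other members are expressed more widely.

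The study manipulated S100A9 with lentiviral vectors and asked how gene expression responded. It had 6 groups of 3 libraries. U937 cells carried an empty vector or shS100A9, a knockdown vector. THP-1 cells carried an empty vector or an S100A9 overexpression vector, and both kinds were also profiled after 36 hours in 1 µM Adavivint. This compound, also called lorecivivint, targets CLK and DYRK family kinases and is known as a modulator of the Wnt pathway. Every group was transduced, and puromycin selection (2 µg/mL) began at 48 hours and lasted 24 hours or longer. The labels name no vehicle for the untreated groups, 1 hairpin label for the knockdown and no promoter for the overexpression vector. In bulk libraries, fewer cells that express a gene and less RNA of it per cell cannot be told apart.

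Libraries held between 38.4 and 84.4 M counts. The targeted gene followed the labels: S100A9 was at 6.18 ± 1.43 against 0.228 ± 0.174 CPM in U937 cells and at 6.44 ± 2.72 against 28.4 ± 1.73 CPM in THP-1 cells (SD, n = 3 each). Myeloid markers were present in every group, with 8 to 10 of 10 at a mean of at least 1 CPM. The summed erythroid markers reached at most 0.603 CPM in any library and the epithelial markers 0.258 CPM. B cell markers summed to between 6.07 and 14.4 CPM, with 2 of 3 at a mean of at least 1 CPM in every group. Stromal markers summed to at most 1.43 CPM and megakaryocyte or platelet markers to at most 1.07 CPM. Of the T cell markers, 1 was in the table, at or below 0.0508 CPM. U937 empty vector 2 and U937 shS100A9 3 stood apart from the other libraries of their groups (chi-square per degree of freedom between 135 and 225 in pairs that include them, against 8.05 and 13.1 for the remaining pair of each group). The knockdown values of the S100 genes are therefore also given without these libraries, and those of other genes with all libraries only.

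Levels are CPM (counts scaled to the size of each library, with TMM factors) over the 18 libraries. A gene is said to have risen, fallen or passed where its adjusted p was below 0.05 with edgeR's quasi-likelihood test over all genes of the fit. Where levels of different genes are compared, CPM is divided by the merged exon length in kb.

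S100A11 and S100A4 had the highest levels per kb. In U937 empty vector cells S100A11 was at 290 ± 21.8 CPM per kb and S100A4 at 148 ± 40.5, followed by S100A6 at 107 ± 9.12 and S100P at 75.3 ± 9.05 (SD, n = 3). In THP-1 empty vector cells S100A4 led with 225 ± 11.2 CPM per kb, ahead of S100A11 at 196 ± 11.4, S100A6 at 108 ± 1.89 and S100P at 43.1 ± 3.67. S100A10 stood between these abundant genes and the scarce ones, with 13.1 ± 0.831 and 14.9 ± 0.407 CPM per kb in the U937 and THP-1 controls. The scarce members were S100B (3.34 and 1.45 CPM per kb), S100A13 (2.81 and 2.66) and S100A1 (0.835 and 1.11). S100A16 had 6 counts in all, 4 in THP-1 overexpression 3 and 2 in U937 shS100A9 3. The remaining 4 groups had 0 counts, which allows at most 0.0187 to 0.0245 CPM (3 counts over the group, counting error only). S100Z had 2 counts, both in THP-1 empty vector 3.

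**Figure D1:**
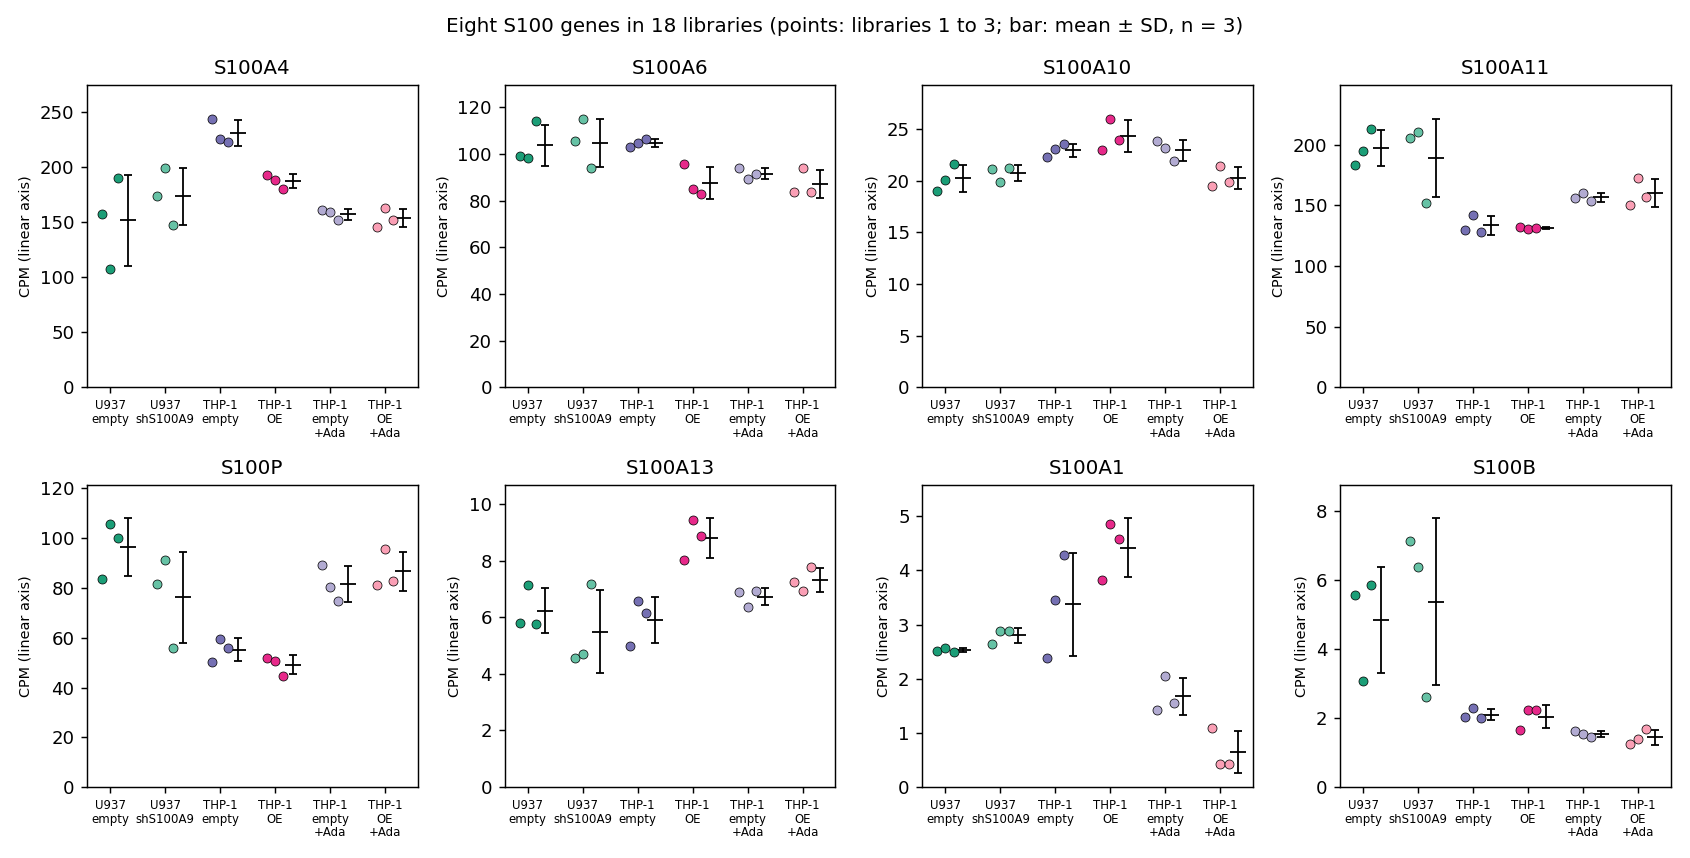
CPM (linear axis from 0) of the 8 tested S100 genes in each of the 18 libraries, with the mean and SD of each group of 3; Ada stands for Adavivint and OE for S100A9 overexpression. S100P and S100A11 lie higher and S100A1 lower in both THP-1 groups with Adavivint, and S100A4 spreads widely in the U937 groups.

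Of the 10 genes, 7 lie on chromosome 1 (GENCODE 29, GRCh38), where most of the family is clustered. S100A10 (151982915 to 151994390) and S100A11 (152032506 to 152047907) are neighbours at the near end. S100A6 (153534599 to 153536244), S100A4 (153543613 to 153550136), S100A16 (153606886 to 153613145) and S100A13 (153618787 to 153631360), all on the minus strand, and S100A1 (153627926 to 153632039, plus strand) lie beyond S100A9, S100A12 and S100A8. S100B is on chromosome 21 (46598962 to 46605208, minus strand), S100P on chromosome 4 (6693069 to 6697170, plus strand) and S100Z on chromosome 5 (76850001 to 76921650, plus strand). S100A1 and S100A13 overlap on opposite strands and share 235 bp of exon, 7.8% of the S100A1 exons and 10.6% of those of S100A13. Whether counting used strand is not stated in the sources at hand, so reads from the shared stretch cannot be assigned to 1 of them. S100A13 further shares 536 bp, 24.2% of its exons, with AL162258.1 on the same strand. S100A1 shares 320 bp, 10.6% of its exons, with AL162258.2 on the opposite strand. Neither AL162258.1 nor AL162258.2 is in the counts table, and reads from them could be counted for these members. S100A11 has 2 annotated pseudogenes named for it, which could also share reads.

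Core promoters of some members are shown as a description, and their part in the changes was not tested. Each line gives the 30 bases from 45 to 16 upstream of a RefSeq transcript start (GRCh38.p14), where a TATA box usually lies, 5′ to 3′ on the gene's strand, with TATAAA in capitals.
S100A4, chr1:153545822-153545851, minus strand: gggcctggctggggTATAAAtaggtcagac
S100P, chr4:6693833-6693862, plus strand: tcaatatgaggctgcctTATAAAgcaccaa
S100A13 (the second of 3 starts), chr1:153627521-153627550, minus strand: ctccttccccgctgctTATAAAcctcagcc
S100A6, chr1:153536007-153536036, minus strand: cggggcaccgaccgctataaggccagtcgg
S100A11, chr1:152037020-152037049, minus strand: tctgagtaaggcttgggcaaggctgggccg
S100A1, chr1:153628389-153628418, plus strand: cgggggagggactgttgaagacaggtctcc
TATAAA was searched on both strands and occurred at 3 of the 12 starts that RefSeq lists for 9 of the 10 genes (none for S100B), against 3.01% of 35116 RefSeq promoters in the same 30 bases. A GC box (GGGCGG, both strands, the 120 bases before the start) occurred at 3 of the 12 starts, among them S100A6 with 3 matches and S100A11 with 1, against 34% of all promoters. An E-box (CACGTG, same 120 bases) occurred at 0 of the 12, against 3.9% of all. Of the genes with TATAAA, S100P rose and S100A4 fell under Adavivint, and S100A13 did not pass. In S100A13 the motif is at the second of 3 starts only, and counts per gene do not show which start was used. A link between motif and response was not tested.

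The control cells of both lines were compared first. S100P, S100A11 and S100B were higher in U937 than in THP-1 empty vector cells, so 3 of the 8 tested genes were higher and 0 lower, in a comparison that called 26.2% of 13695 genes (11.4% higher, 14.8% lower). This describes 1 line against another, without replication of lines. S100P, a member known from placenta and carcinomas that binds ezrin, was at 83.5, 106 and 99.9 CPM in the U937 libraries and at 50.2, 59.5 and 56.0 CPM in THP-1. The libraries did not overlap, and the fold was 1.74 (95% interval 1.45 to 2.09, log2 0.80, SE 0.11, adjusted p = 0.00237). S100A11, which binds annexin A1, stood at 183, 195 and 213 against 130, 142 and 128 CPM, again without overlap (1.47-fold, log2 0.56, SE 0.09, adjusted p = 0.00341).

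S100B, known chiefly from glial cells, was scarce in both lines but 2.30-fold higher in U937 (log2 1.20, SE 0.27, adjusted p = 0.018). Its libraries read 5.57, 3.08 and 5.86 CPM in U937 and 2.02, 2.28 and 1.99 CPM in THP-1, and the lowest U937 value is that of the library that stands apart. The lines did not overlap, but the call was lost in 5 of 6 fits with 1 library left out: adjusted p was 0.0564 without U937 empty vector 1, 0.0585 without U937 empty vector 3, and 0.0682, 0.0614 and 0.0736 without THP-1 empty vector 1, 2 and 3. S100A4, a member linked to cell motility, showed 157, 108 and 190 CPM in U937 against 244, 226 and 223 CPM in THP-1. All U937 values lay below, and the difference missed the threshold (log2 -0.61, 95% interval -1.07 to -0.15, adjusted p = 0.0592). It passed without U937 empty vector 2 (log2 -0.42, adjusted p = 0.00883) and without U937 empty vector 3 (log2 -0.81, adjusted p = 0.0222), and DESeq2 also called it (adjusted p = 0.0125).

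Lowering S100A9 in U937 cells left every member short of the threshold. Of the 8 tested genes 0 rose and 0 fell, where edgeR called 1.77% of 13016 genes (0.23% higher, 1.54% lower). The count at an unadjusted p below 0.05 was 0, and DESeq2 also called 0. Without U937 empty vector 2 and shS100A9 3 the same comparison called 4296 genes (32.9%) and still 0 members.

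S100P had the largest fitted difference among them, with 81.6, 91.2 and 56.0 CPM after knockdown against 83.5, 106 and 99.9 CPM in the controls. These groups overlap, and the interval of the log2 fold change ran from -0.80 to 0.11 (adjusted p = 0.486). S100A1 was at 2.64, 2.88 and 2.88 CPM after knockdown against 2.52, 2.57 and 2.50 CPM, all above and without passing (interval -0.32 to 0.59). S100A4 was at 174, 199 and 147 CPM after knockdown, overlapping the controls (interval -0.34 to 0.70). For S100A6, a partner of calcyclin-binding protein, and for S100A10, the ligand of annexin A2, the intervals were narrower, at -0.26 to 0.28 and -0.22 to 0.28. S100B was the least well measured member, with 7.12, 6.38 and 2.62 CPM after knockdown and an interval of -0.86 to 1.14. The value of 2.62 CPM comes from shS100A9 3, which also held the lowest S100P, S100A11 and S100A4 of its group. Without both libraries that stand apart the log2 fold changes were 0.13 for S100A1, 0.09 for S100A4, 0.04 for S100A6, 0.00 for S100A10, 0.23 for S100B, -0.10 for S100P, 0.06 for S100A11 and -0.32 for S100A13, with adjusted p between 0.112 and 0.991.

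Raising S100A9 in THP-1 cells was followed by small changes in 3 members: S100A13 rose, and S100A4 and S100A6 fell. That is 1 higher and 2 lower of 8, where 28% of 15403 genes were called (14.9% higher, 13% lower). S100A13, which is released together with FGF1 by cells under stress, was at 4.98, 6.57 and 6.13 CPM with the empty vector and at 8.03, 9.44 and 8.88 CPM with overexpression. The groups did not overlap, and the fold was 1.50 (95% interval 1.27 to 1.78, log2 0.59, SE 0.11, adjusted p = 0.00251). S100A4 fell from 244, 226 and 223 to 193, 188 and 180 CPM, a fold of 1.23 with all overexpression libraries below all controls (log2 -0.30, SE 0.06, adjusted p = 0.00193). Its neighbour S100A6 fell from 103, 105 and 107 to 95.5, 84.8 and 82.8 CPM, also without overlap (log2 -0.25, SE 0.06, adjusted p = 0.00616). Each of these 3 calls held in all 14 alternative fits, with log2 fold changes of 0.49 to 0.67 for S100A13, -0.34 to -0.24 for S100A4 and -0.31 to -0.21 for S100A6.

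The other 5 tested members did not pass. S100A1, which overlaps S100A13, read 2.38, 3.45 and 4.28 CPM with the empty vector and 3.82, 4.86 and 4.58 CPM with overexpression. The control libraries spread over almost the whole range of both groups (log2 0.41, interval -0.20 to 1.01, adjusted p = 0.305). S100A11 and S100A10 had narrow intervals around 0, from -0.14 to 0.10 and from -0.05 to 0.23. The interval for S100P ran from -0.34 to 0.02 and that for S100B from -0.40 to 0.35. The summed CPM of the 10 genes was 550 to 568 in the control libraries and 479 to 509 in the overexpression libraries, without overlap. This sum mostly repeats the falls of S100A4 (mean 231 to 187 CPM) and S100A6 (105 to 87.7 CPM). The median log2 fold change of the 8 tested members was -0.02, against 0.02 over all genes.

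**Figure D2:**
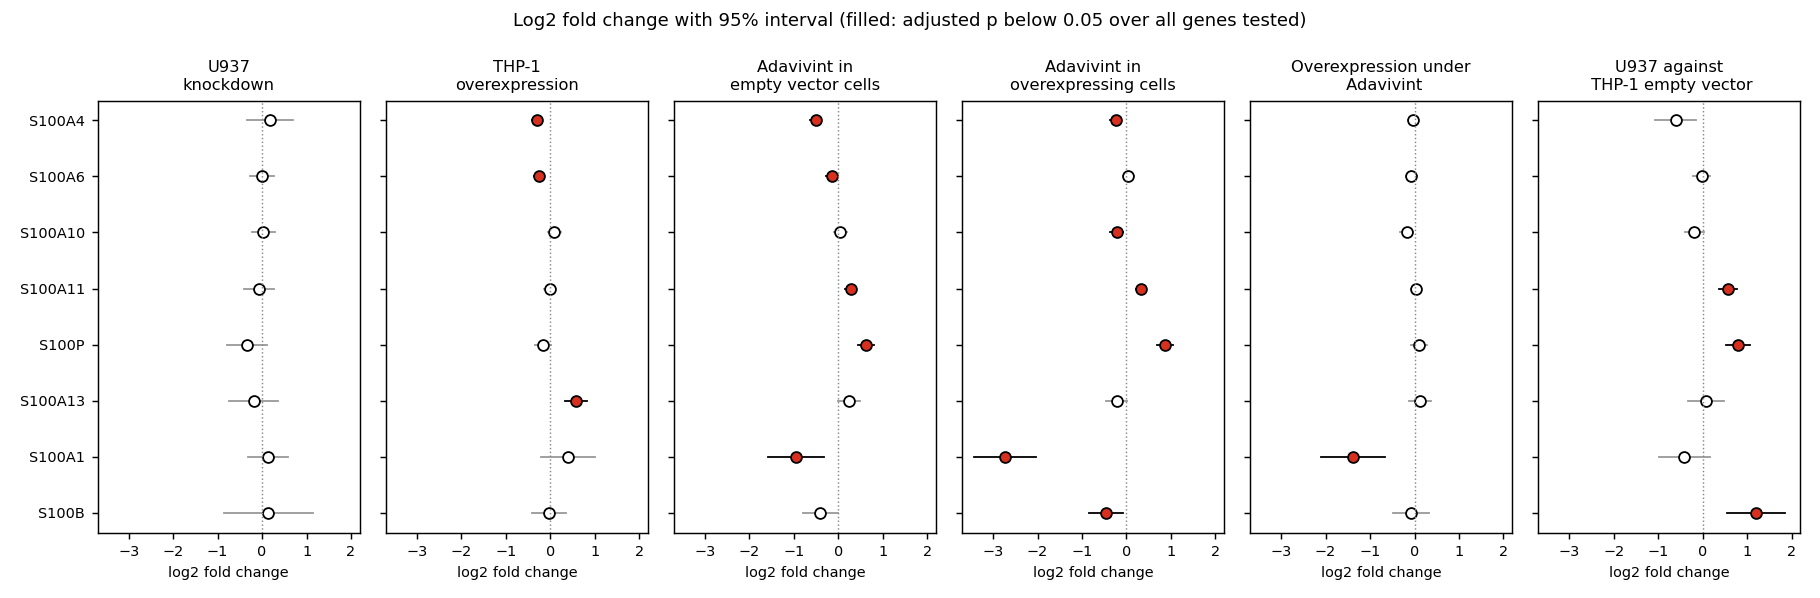
Log2 fold change (horizontal axis) of the 8 tested S100 genes with its 95% interval in 6 comparisons; filled points have an adjusted p below 0.05 over all genes tested. 0 points are filled for the U937 knockdown, and S100P and S100A11 lie to the right and S100A1 to the left of 0 with Adavivint in both vector backgrounds.

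Adavivint changed most of the transcriptome. Among the S100 genes, S100P and S100A11 rose with both vectors and S100A1 and S100A4 fell with both. With the empty vector 2 members were higher and 3 lower of 8, where 85.3% of genes were called (44.2% higher, 41.1% lower). With overexpression 2 were higher and 4 lower, where 84.7% were called (43.4% higher, 41.3% lower). The shares of members called (5 and 6 of 8) are near or below these backgrounds. On this scale most members moved less than most genes, which were not matched to them for level. TMM takes most genes as unchanged, which is in doubt with 85.3% and 84.7% of genes called. The changes are therefore relative to the rest of each library. The median absolute log2 fold change was 0.34 over the 8 members against 0.96 over all genes with the empty vector, and 0.28 against 0.98 with overexpression. All 8 members lay below the median of all genes in the first case and 7 of 8 in the second. Of all genes 47.5% and 48.2% passed with at least a 2-fold change, and among the members 0 and 1 did. These comparisons share control libraries with the overexpression comparison, so their values are given side by side only.

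**Figure D3:**
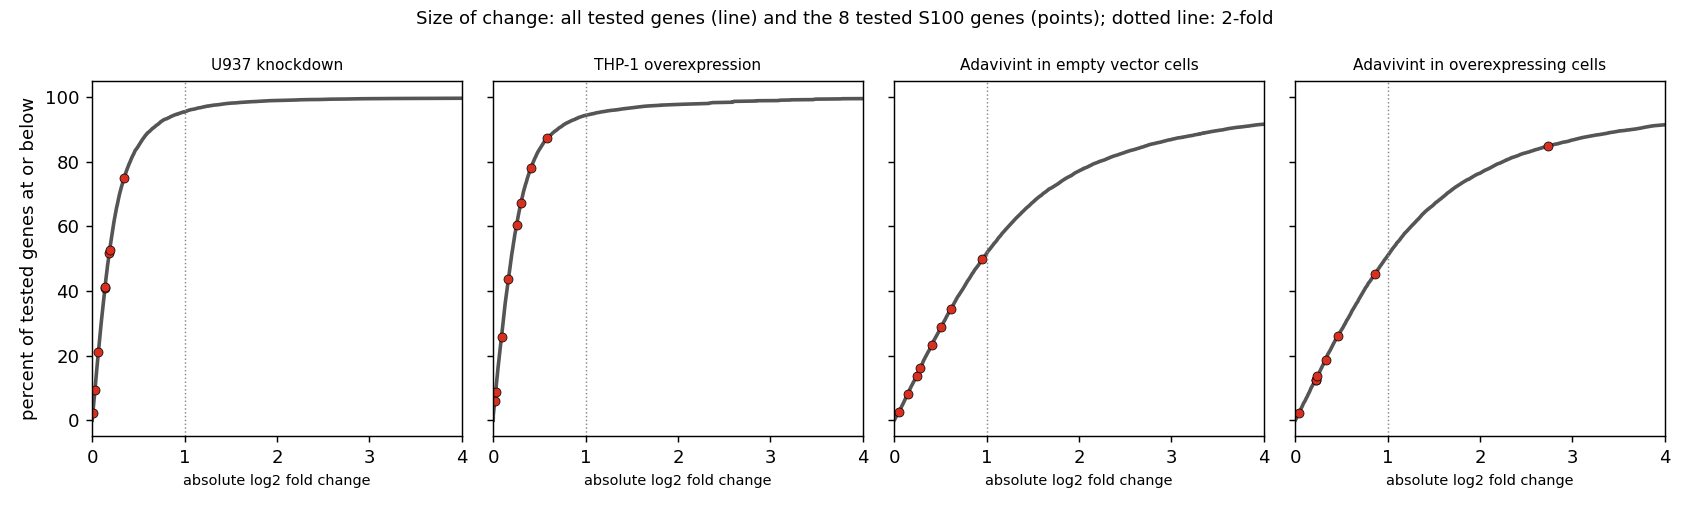
Cumulative share of tested genes (vertical axis, percent) by absolute log2 fold change (horizontal axis) in 4 comparisons, with the 8 tested S100 genes as points on the line and a dotted line at 2-fold. In empty vector cells with Adavivint all 8 points lie below the median of all genes (0.96), and with overexpression S100A1 is the 1 point beyond 2-fold.

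Among the members that rose, S100P went from 50.2, 59.5 and 56.0 to 89.2, 80.3 and 74.9 CPM in empty vector cells, 1.53-fold (95% interval 1.35 to 1.73, log2 0.61, SE 0.08, adjusted p = 9.57e-06). In overexpressing cells it went from 51.9, 50.7 and 44.7 to 81.3, 95.8 and 82.7 CPM, 1.82-fold (interval 1.61 to 2.06, adjusted p = 2.43e-07). All treated libraries lay above all untreated ones. S100A11 rose from 130, 142 and 128 to 156, 160 and 154 CPM with the empty vector (1.21-fold, log2 0.28, SE 0.06, adjusted p = 0.000322) and from 132, 131 and 131 to 150, 173 and 157 CPM with overexpression (1.25-fold, log2 0.33, SE 0.06, adjusted p = 7.83e-05). Neither pair of groups overlapped. With the drug, both genes came closer to their levels in U937 control cells, from below.

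S100A1, known from heart and skeletal muscle as a regulator of calcium cycling, showed the largest change of any member. With the empty vector it fell from 2.38, 3.45 and 4.28 to 1.42, 2.05 and 1.55 CPM (1.94-fold, log2 -0.95, SE 0.29, adjusted p = 0.00795). With overexpression it fell from 3.82, 4.86 and 4.58 to 1.09, 0.432 and 0.424 CPM, 6.66-fold (95% interval of the log2 fold change -3.44 to -2.03, SE 0.33, adjusted p = 2.14e-06). Groups did not overlap in either case. The counts behind the lowest group were 42, 17 and 19 reads, and its first library held over 2-fold more CPM than the other two.

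S100A4 fell from 244, 226 and 223 to 161, 159 and 152 CPM with the empty vector (1.42-fold, log2 -0.51, SE 0.06, adjusted p = 9.09e-07). With overexpression it started lower, at 193, 188 and 180 CPM, and reached a similar range, 146, 163 and 152 CPM (1.18-fold, log2 -0.24, SE 0.06, adjusted p = 0.0011). Under the drug the S100A4 levels of both vectors overlapped (interval of the log2 difference -0.15 to 0.09).

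Changes in S100A6, S100A10 and S100B were small and less firm. S100A6 went from 103, 105 and 107 to 94.1, 89.1 and 91.4 CPM with the empty vector, a non-overlapping fall of 0.15 on the log2 scale (adjusted p = 0.0295). The call was lost without empty vector 2 (adjusted p = 0.0531) or 3 (0.051), without treated library 2 (0.0782) or 3 (0.0593), and with DESeq2 size factors (log2 -0.10, adjusted p = 0.125) or upper quartile factors (log2 -0.06, adjusted p = 0.369). With overexpression its interval was -0.09 to 0.16. S100A10 fell in overexpressing cells, from 23.0, 26.0 and 24.0 to 19.5, 21.4 and 19.9 CPM without overlap (log2 -0.22, SE 0.07, adjusted p = 0.00779). That call did not hold without overexpression 2 (log2 -0.17, adjusted p = 0.0531) or with upper quartile factors (log2 -0.12, adjusted p = 0.104). In empty vector cells the interval for S100A10 was -0.10 to 0.19.

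S100B was at 1.65, 2.24 and 2.24 CPM in overexpressing cells and at 1.25, 1.40 and 1.67 CPM with the drug. The highest treated library lay above the lowest untreated one, and the fall of 0.46 on the log2 scale (SE 0.18, adjusted p = 0.0283) held in 2 of 6 leave-one-out fits and not with DESeq2 (adjusted p = 0.0897). Its adjusted p was 0.102 without overexpression 2, 0.0949 without overexpression 3, 0.103 without treated library 1 and 0.0686 without treated library 2. In empty vector cells S100B missed the threshold (log2 -0.40, interval -0.79 to -0.01, adjusted p = 0.0504), although all treated libraries, at 1.63, 1.53 and 1.44 CPM, lay below the untreated ones. S100A13 passed with neither vector. Its log2 fold change was 0.24 (interval -0.00 to 0.49, adjusted p = 0.061) with the empty vector and -0.22 (interval -0.46 to 0.02, adjusted p = 0.083) with overexpression. The estimate in empty vector cells passed with DESeq2 size factors (0.29, adjusted p = 0.0289), with upper quartile factors (0.33, adjusted p = 0.0214) and without empty vector 2 (0.32, adjusted p = 0.0288), and that in overexpressing cells without overexpression 1 (-0.29, adjusted p = 0.039).

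Whether the drug effect differed between vectors was tested as an interaction. It passed for 2 of 8 members, S100A1 lower and S100A4 higher, where 19.3% of genes passed (8.04% higher, 11.2% lower). The S100A1 drug effect was 1.78 lower on the log2 scale in overexpressing than in empty vector cells (log2 difference -1.78, SE 0.44, adjusted p = 0.0139). It passed in every one of 19 alternative fits, with differences of -2.37 to -1.54. For S100A4 the difference was 0.27 (SE 0.08, adjusted p = 0.0305), meaning a smaller fall with overexpression. It was lost in 6 of 12 leave-one-out fits: without overexpression 2 (adjusted p = 0.0589) or 3 (0.0791), without treated empty vector 2 (0.055) or 3 (0.064), and without treated overexpression 2 (0.0803) or 3 (0.0537). S100A13 (-0.46, interval -0.81 to -0.12, adjusted p = 0.0594), S100A10 (-0.27, interval -0.47 to -0.06, adjusted p = 0.066) and S100A6 (0.18, interval 0.01 to 0.36, adjusted p = 0.133) missed the threshold, and the DESeq2 test passed S100A13 (adjusted p = 0.0416) and S100A10 (0.0481).

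With the drug present, overexpressing and empty vector cells differed in 1 of 8 members, where 8.5% of genes passed (3.69% higher, 4.8% lower). S100A1 was lower with overexpression, at 1.09, 0.432 and 0.424 against 1.42, 2.05 and 1.55 CPM without overlap (2.60-fold, log2 -1.38, SE 0.34, adjusted p = 0.0239). The call was lost without treated empty vector 2 (log2 -1.20, adjusted p = 0.0983), treated overexpression 2 (-1.16, adjusted p = 0.101) or treated overexpression 3 (-1.13, adjusted p = 0.0927). S100A13, higher with overexpression in untreated cells, was at 7.26, 6.94 and 7.76 against 6.91, 6.37 and 6.91 CPM under the drug (interval of the log2 difference -0.12 to 0.37).

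The order of the groups differed between members. S100P ran from U937 empty vector through both treated THP-1 groups and U937 shS100A9 down to untreated THP-1, and each neighbour in that order overlapped the next. S100A11 had both U937 groups highest, the treated THP-1 groups next and the untreated ones lowest, with a gap only between treated and untreated THP-1. For S100A4 THP-1 empty vector stood clear above the other 5 groups, which overlapped from one to the next. S100A10 and S100A6 varied least of the 8 tested members, with 1.20-fold between the highest and the lowest group mean for each. S100A1 varied most, 6.81-fold, and S100B 3.73-fold.

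S100A8 and S100A9, which lie between the 2 chromosome 1 groups of members, rose with Adavivint: S100A8 5.00-fold with the empty vector and 13.4-fold with overexpression, S100A9 2.17- and 3.80-fold. In overexpressing cells S100A9 reads can come from the vector as well as the locus. S100A8 started there at 0.403 ± 0.195 CPM, lower than with the empty vector (1.99-fold, adjusted p = 0.0256, libraries overlapping). S100A12 had between 0 and 15 counts a group and was not tested.

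Annexins bind calcium and membranes, and several are held by an S100 dimer. Of the 10 annexins tested, 2 rose and 7 fell with Adavivint in empty vector cells (median log2 fold change -0.76, against 0.06 over all genes), and 2 rose and 6 fell in overexpressing cells (-0.98 against 0.04). Over all genes 44.2% rose and 41.1% fell with the empty vector and 43.4% and 41.3% with overexpression, so the total of annexins called is near the background. ANXA6 fell 10.7-fold, from 392 ± 26.5 to 35.5 ± 2.64 CPM, ANXA4 5.29-fold and ANXA11, a partner of S100A6, 3.94-fold (adjusted p at most 6.16e-12). ANXA1, the partner of S100A11, went the same way as S100A11, from 85.9, 73.6 and 73.5 to 175, 167 and 149 CPM (2.18-fold, adjusted p = 3.53e-09), and 2.79-fold with overexpression (adjusted p = 1.79e-10).

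ANXA2, which forms a tetramer with S100A10 and is known to stabilise it as a protein, was lower with overexpressed S100A9 while S100A10 did not pass. In THP-1 cells ANXA2 fell from 560, 514 and 490 to 328, 322 and 308 CPM (1.63-fold, log2 -0.70, SE 0.06, adjusted p = 1.13e-05). In U937 cells it was at 288, 292 and 300 CPM with the empty vector and at 159, 165 and 88.4 CPM after knockdown, without overlap and without passing (log2 -1.10, SE 0.23, adjusted p = 0.0795). The value of 88.4 CPM is from shS100A9 3, which stands apart. S100A10 was between 19.0 and 26.0 CPM in all 18 libraries. ANXA2 has 3 annotated pseudogenes, which could share its reads.

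Among 22 tested binding partners and receptors, 12 rose and 9 fell with Adavivint in empty vector cells (median 0.13 against 0.06) and 9 rose and 9 fell in overexpressing cells (median -0.03 against 0.04), near the shares of all genes called (85.3% and 84.7%). PLAUR, the urokinase receptor, rose from 38.1 ± 2.16 to 84.9 ± 3.31 CPM and 2.72-fold with overexpression. CACYBP, the calcyclin-binding protein named for S100A6, fell from 191 ± 13.3 to 78.6 ± 1.95 CPM, and MYH9, the non-muscle myosin heavy chain bound by S100A4, from 775 ± 28.0 to 408 ± 19.0 CPM. S100PBP, a nuclear protein that binds S100P, fell 3.45-fold with the empty vector and 4.18-fold with overexpression, opposite to S100P. In overexpressing cells AHNAK, a scaffold bound by S100A10 with annexin A2, fell 2.93-fold. Chosen after its values were seen, AGER, the receptor RAGE, rose from 6.52 ± 1.33 to 14.3 ± 0.782 CPM with the empty vector (2.27-fold, adjusted p = 3.56e-07) and 1.46-fold with overexpression (adjusted p = 0.000557). Without the drug, 5 of these genes rose and 3 fell with overexpression, where 14.9% and 13% of all genes did. After the U937 knockdown 1 rose, where 0.23% of all genes did (RYR2, a calcium channel regulated by S100A1 in muscle, 2.74-fold, adjusted p = 0.0345). RYR2 was also higher with S100A9 overexpression in untreated THP-1 cells (log2 0.79, adjusted p = 0.0128).

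**Figure D4:**
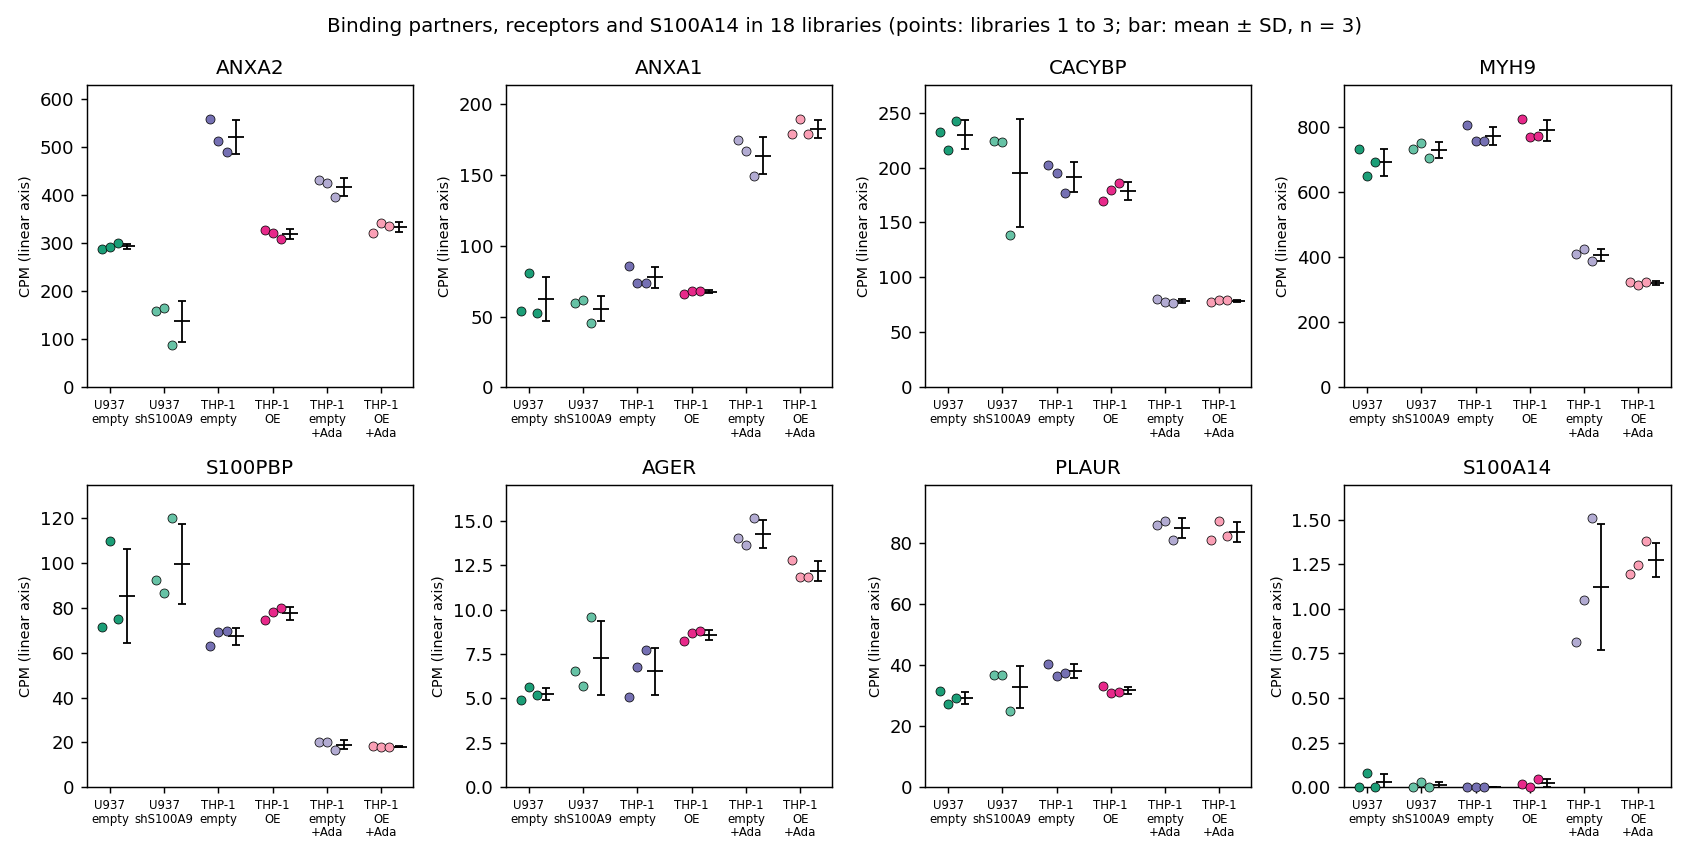
CPM (linear axis from 0) of 5 binding partners, the receptors AGER and PLAUR and the neighbouring gene S100A14 in each of the 18 libraries, with the mean and SD of each group of 3. ANXA2 lies lower with S100A9 overexpression in THP-1 (adjusted p = 1.13e-05) and, without passing, after S100A9 knockdown in U937 (adjusted p = 0.0795). CACYBP, MYH9 and S100PBP fall while ANXA1, AGER, PLAUR and S100A14 rise with Adavivint.

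A wider list of EF-hand proteins, calmodulins among them, fell more uniformly than the S100 members. With Adavivint 24 of 29 fell and 2 rose in empty vector cells (median -1.0 against 0.06 over all genes), and 23 fell and 4 rose in overexpressing cells (median -0.84 against 0.04). NUCB2, a calcium-binding protein of the Golgi and of secretory cells, fell 6.25- and 5.07-fold, and ACTN1, an actin crosslinker, 4.72- and 4.32-fold. The calmodulin genes moved less: CALM3 fell 1.51- and 1.32-fold, and CALM2 fell 1.21-fold with the empty vector and rose 1.11-fold with overexpression. Of all genes, 41.1% and 41.3% fell in these comparisons. With overexpression alone 10 of the 29 fell and 1 rose, where 13% of all genes fell and 14.9% rose.

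Of the 44 other protein-coding genes of the table that start within 500 kb of a member on chromosome 1, 33 were tested in THP-1 cells. With Adavivint 13 rose and 15 fell in empty vector cells, and 14 rose and 13 fell in overexpressing cells, close to the split of all genes. In the remaining S100 family, S100A14, which lies between S100A16 and S100A13 (153614255 to 153616986), appeared with the drug. It had 0 counts in empty vector cells and 153 counts with Adavivint, at 0.814, 1.05 and 1.51 CPM, at least 59.9-fold higher (against 3 counts over the group). In overexpressing cells 4 counts became 157 (ratio 63.3, exact 95% interval 24.2 to 235, counting error only). S100A16, its neighbour, had 0 counts in both treated groups, against 0 in untreated empty vector cells and 4 in untreated overexpressing cells, and S100A13 did not pass with either vector. Of 10 myeloid markers 4 rose and 5 fell with the drug in empty vector cells, near the share of all genes called (85.3%). Their median log2 fold change was -0.14 with the empty vector and -0.12 with overexpression. CD14 went from 0.369 ± 0.177 to 20.5 ± 1.12 CPM and CD33 from 85.0 ± 2.59 to 21.6 ± 1.31 CPM. The summed myeloid markers, where the most abundant weigh most, ranged from 989 to 1079 CPM in untreated and from 1256 to 1434 CPM in treated THP-1 libraries. The summed erythroid markers ranged from 0 to 0.111 and from 0.357 to 0.603 CPM. The part of either in the S100 values was not tested.

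For the 7 members with at least 5 CPM in a group, the genes with the most similar pattern were taken by Pearson r of log2(CPM + 0.5) over the 18 libraries, among 11576 genes. These libraries share lines and treatments, so r mostly reflects the order of the groups. S100B was most like POLA1 (r = 0.97) and ACTL8 (0.96), S100A11 like GINS1 (0.95) and ERCC6L (0.94), and S100A4 like TMEM258 (0.92) and NDUFA3 (0.92). S100P was most like SUV39H1 (0.91) and SNRPB2 (0.90), S100A6 like THAP4 (0.88) and CNPY4 (0.86), S100A13 like ITPR2 (0.88) and EXOC4 (0.87), and S100A10 like PIK3C3 (0.82) and DST (0.81). Between members, S100A11 and S100P were most alike (r = 0.85), and S100A6 and S100A13 ran most opposite (r = -0.79).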

How the data were processed

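RNA from 18 libraries was sequenced, and sample titles gave the 6 groups of 3. The values are raw read counts for each Ensembl gene, in a single matrix deposited by the authors. HISAT2 2.0.4 is named in the submitters' processing notes. The counter, its build and annotation, and whether it used strand: not given in the sources used here. Symbols matched for 18642 of 18670 genes, and positions came from GENCODE 29 (18482 identifiers found). Promoters came from RefSeq, which had an entry for 9 of the 10 genes.

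Counts were tested with the quasi-likelihood test of edgeR 4.0.16 (R 4.3.3; TMM, filterByExpr, Benjamini-Hochberg over all genes). The U937 knockdown used 6 libraries, the THP-1 contrasts 1 fit of 12, and the comparison of lines the 6 untreated empty vector libraries. Standard errors are the log2 fold change over the square root of F. The procedure was tested on simulated data for the U937 knockdown, THP-1 overexpression and the comparison of lines. In that order it recovered 52, 77 and 64 of 100 true 2-fold changes and 84, 93 and 87 of 100 true 4-fold changes. It also called 6, 12 and 9 unchanged genes. The contrasts with Adavivint, the interaction among them, were not simulated. Changes below 2-fold, the size of most member differences, were not simulated either. Genes were drawn independently, so no simulated library stood apart as in the U937 data. No label says whether the replicates came from separate cultures. The p-values therefore reflect only how far these libraries spread, which may be technical. Replicate pairs differed by more than sampling noise (chi-square per degree of freedom 7.18 or more).

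Named were all members, up to 4 genes per list and comparison by smallest p, and the 2 most similar genes per member. AGER and CALM3, named beyond that, were chosen after their values were seen. ANXA1 and CALM2 were picked by that rule in other comparisons, and their values for Adavivint against untreated cells were added outside it. The ANXA2 values of the U937 knockdown were also added outside it. The members and lists were chosen with earlier results of these data known. Alternatives were other scalings and filters, DESeq2 1.42.0, a replicate block, other sets of libraries and each library left out. Genes not found in the table were not analysed here, and the promoter sequence of S100A10 is not reported here.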

Additional observations from a re-analysis of the deposited data

Results flagged for a closer look

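The effect of Adavivint differed between vectors for 2 members by the interaction test. S100A1 fell more in overexpressing than in empty vector cells, with a difference of -1.78 on the log2 scale (adjusted p = 0.0139). S100A4 fell less in overexpressing cells, with a difference of 0.27 (adjusted p = 0.0305), and that call did not survive 6 of the 12 fits that left out 1 library.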

How the results depend on the processing

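Over 832 alternative values of single members, 31 calls were lost and 24 gained. The sign changed 28 times, never with a call and at most at a log2 value of 0.12. Apart from the fits that left out 1 library, member counts mostly stayed within 1.5 times. The exceptions were library totals, with 2 members for overexpression under Adavivint and 4 for the interaction, and DESeq2, with 4 for the interaction. Leaving out 1 library gave 0 to 0 members for the U937 knockdown, 3 to 3 for overexpression, 4 to 5 and 4 to 7 for Adavivint with the empty and the overexpression vector, 0 to 1 for overexpression under Adavivint, 1 to 5 for the interaction and 2 to 4 for the lines. Over all genes these fits called 18 to 362, 2735 to 4983, 12841 to 13103, 12778 to 12910, 502 to 1174, 1885 to 3724 and 2122 to 6111, against 231, 4307, 13143, 13048, 1309, 2968 and 3583 with all libraries. The lowest counts came without U937 empty vector 1, overexpression 2 (overexpression and interaction), treated empty vector 2 (overexpression under Adavivint) and THP-1 empty vector 2 (lines), and 6111 came without U937 empty vector 2. For the U937 knockdown DESeq2 called 790 genes, 1 fit of all 18 libraries 1932 and the fit without both libraries that stand apart 4296, and for overexpression under Adavivint DESeq2 called 1998. The cause was not tested.

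The samples were treated as unpaired. Same-numbered U937 libraries deviated with r of 0.30, -0.56 and -0.48, and those of the THP-1 contrasts between -0.07 and 0.12. The negative U937 values are at the numbers of the libraries that stand apart, so they cannot decide whether samples were paired. Every library correlated best with its own number for Adavivint with overexpression only, and 4 of 6 did for Adavivint with the empty vector. With the replicate block 3 genes were called for the U937 knockdown. The block changed 1 member call, S100A4 between the lines (log2 -0.65, adjusted p = 0.0447).

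Scaling moved the median of all genes under Adavivint with the empty vector from 0.06 (TMM) to 0.10 (DESeq2 factors) or 0.14 (upper quartile), and with overexpression from 0.04 to 0.13 (upper quartile), which bears on changes as small as those of S100A6 and S100A10. S100A1 under Adavivint with overexpression rests on 17 to 42 reads a library.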
